A study of Mus musculus with 6 samples.

Results

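Genes of intracellular membrane traffic were taken by symbol: those that begin with Rab, Arf, Vps, Snx or Cop followed by a digit or by a, b, e, g or z, and those that begin with Ap1, Ap2, Ap3 or Ap4 followed by a letter. Only probe sets with exactly 1 gene symbol were read, 153 in all, and the probe set with the highest mean intensity stood for each gene. This gave 114 genes out of 8251. Of them 96 had an intensity above 79.7, the median of all values, on at least 1 array and were tested, and 18 did not. Ap3s2 passed that filter through the G93A-SOD1 array of 75 days alone and Rab33a through the nontransgenic array of 110 days alone.

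The RNA came from whole spinal cords of mice of 3 genotypes at 75 and 110 days of age, with 4 cords in each RNA and 1 array for each genotype and age. Nontransgenic mice were of strain B6SJL. A second genotype, WT-SOD1, carried wild-type SOD1 as a transgene, on B6SJL at 75 days and with no strain given at 110 days. The third carried SOD1 with the G93A substitution, which causes familial amyotrophic lateral sclerosis in people, and was labelled B6SJL-G93A-SOD1 at 75 days and B6SJL-G93A-SOD1H at 110 days. According to the submitters these last mice had no symptoms at the younger age and tremor with partial paralysis at the older, while mice with the wild-type form had no disease at either. The first and second genotypes together are the disease-free cord of the comparisons. The promoter and copy number of each transgene and the sex of the mice were not given in the sources used here.

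Cells move cargo between organelles in vesicles and tubules. Rab GTPases mark the compartments and, bound to GTP, recruit tethers, motors and fusion factors, while Arf GTPases recruit coats. The COPI coat returns cargo from Golgi to endoplasmic reticulum, the adaptor complexes AP-1 to AP-4 select cargo at the Golgi, plasma membrane and endosomes, and Vps proteins and sorting nexins sort and recycle it at endosomes. Neurons rely on this traffic along their axons, and a mutation of Vps54 causes the motor neuron loss of the wobbler mouse.

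The rule also takes in 5 genes that share only a prefix and are not known for a role in this traffic. Cop1 encodes a ubiquitin ligase and Vps72 a chromatin protein, Rab5if is named for an interaction with Rab5, and Rab10os and Rab26os are opposite-strand transcripts. They stay in all counts.

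Rab1a, Rab5c and Rab14 are among the 5 tested genes with the most negative G93A-SOD1 difference at 75 days, and their upstream sequences are shown as examples of the promoters of these genes. Each line holds the 250 bases before the annotated gene start in RefSeq (GRCm38.p6), 5′ to 3′ along the gene, with every GC box (GGGCGG on either strand) in capitals. The Rab1a window is chr11:20201162-20201411 on the plus strand, and the windows of Rab5c, chr11:100738216-100738465, and Rab14, chr2:35201121-35201370, are on the minus strand.
Rab1a: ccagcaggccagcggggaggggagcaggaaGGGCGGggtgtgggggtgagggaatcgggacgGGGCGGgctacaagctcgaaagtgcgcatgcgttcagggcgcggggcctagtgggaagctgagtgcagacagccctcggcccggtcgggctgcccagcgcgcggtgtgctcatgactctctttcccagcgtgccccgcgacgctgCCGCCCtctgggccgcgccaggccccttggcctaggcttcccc
Rab5c: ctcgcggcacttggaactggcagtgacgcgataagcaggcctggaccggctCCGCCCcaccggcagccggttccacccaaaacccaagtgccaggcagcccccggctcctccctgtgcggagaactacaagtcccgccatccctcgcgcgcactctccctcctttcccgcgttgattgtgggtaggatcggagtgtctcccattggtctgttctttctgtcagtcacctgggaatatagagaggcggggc
Rab14: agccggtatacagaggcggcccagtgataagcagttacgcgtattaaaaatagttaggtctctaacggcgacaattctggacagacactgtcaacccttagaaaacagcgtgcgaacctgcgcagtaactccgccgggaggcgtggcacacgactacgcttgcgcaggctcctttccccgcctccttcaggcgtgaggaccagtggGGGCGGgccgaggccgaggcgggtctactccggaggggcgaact
Rab1a held 3 GC boxes, and Rab5c and Rab14 held 1 each. G and C made up 72.4% of the Rab1a window, 63.2% of that of Rab5c and 60.0% of that of Rab14. Windows were found for 96 of the 114 genes, 117 in all. A GC box lay in 65.0% of these, against 32.7% of all 32851 windows of the same length, and their median GC content was 62.0% against 52.4%. The E-box CACGTG lay in 12.0% of member windows and 6.02% of all, and CCAAT in 34.2% and 33.9% (both strands). These shares count letters in the windows and were not tested.

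Some arrays stood apart in ways that touch these genes. The 2%-trimmed mean intensity over all probe sets was highest on the nontransgenic array of 110 days (154) and lowest on the G93A-SOD1 array of 75 days (143), with 147 to 149 on the rest. The median over all probe sets was instead lowest on the nontransgenic array of 110 days (77.7, against 79.0 to 80.9 on the rest). Bacterial spike-in probe sets averaged 631 on the nontransgenic array of 75 days and 834 on the WT-SOD1 array of 110 days, against 351 to 457 elsewhere, and the summed cerebellar markers were highest on those same arrays (2909 and 3424, against 1010.1 to 1909.6). Hox genes of spinal position were present on every array, with sums of 1568 to 1794. The sum of 8 neuronal markers was 7333, 7322 and 6722 for nontransgenic, WT-SOD1 and G93A-SOD1 cord at 75 days and 8375, 7870.1 and 5852 at 110 days. The sum of 15 markers of microglia and macrophages was 8520.2 on the G93A-SOD1 array of 110 days and 2243 to 2565 on the others, and that of 6 astrocyte markers 10299 and 6893 to 8062. Single markers did not all follow these sums. Among astrocyte markers at 110 days, Gfap, Aqp4, Glul and Slc1a2 were highest in G93A-SOD1 cord and Aldoc and S100b lowest. Among neuronal markers at 75 days, Snap25, Syt1, Nefl and Map2 were lowest in G93A-SOD1 cord and Syp, Eno2, Nefm and Stmn2 highest. Sod1 read 1037 and 1498 in nontransgenic cord and 1583 to 1906 in transgenic cord. The part of these differences in the values below was not tested, and in whole cord fewer cells of a type and less RNA per cell cannot be told apart.

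No trafficking gene passed the test in any of the 5 comparisons made (limma, Benjamini-Hochberg over 6737 probe sets, threshold 0.05). For G93A-SOD1 against disease-free cord at 110 days, 0 of 96 passed, against 1.51% of all tested probe sets (1.38% higher and 0.134% lower), and the smallest adjusted p was 0.306 (Copg1). At 75 days 0 passed (0.0% of all), with a smallest limma adjusted p of 0.460. The other comparisons gave 0 calls too: the change of the difference between ages (0.416% of all passed, 0.386% higher and 0.0297% lower), age in disease-free cord (0.0148%, all higher) and WT-SOD1 against nontransgenic cord (0.104%, with 0.0891% higher and 0.0148% lower). At an unadjusted p under 0.05 by limma, 1 gene was lower and 0 were higher at 110 days (5.61% and 4.68% of all). At 75 days 5 were lower and 2 higher (6.52% and 3.34% of all), and for the change between ages 2 were lower and 0 higher (2.05% and 4.19%). For age 2 were higher and 0 lower (2.55% and 0.549%), and for WT-SOD1 0 in either direction (0.282% higher and 0.891% lower among all). In 4 of the comparisons the error came from the gaps between both disease-free arrays of each age (2 residual degrees of freedom), moderated by limma toward a value shared by all probe sets (5.13 prior degrees of freedom). In that of WT-SOD1 with nontransgenic cord, which had 1 residual degree of freedom, limma gave every gene the shared value, an SE of 0.19. The 95% interval of a 110-day difference had a median half-width of 0.37 on the log2 scale, a 1.29-fold change. That interval is not adjusted for the number of probe sets, so a gene of median error needed a larger difference to be called.

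These genes varied about as much as all tested probe sets. The highest of the 6 intensities was 1.29 times the lowest at the median, the same as over all tested probe sets (1.29 times). The ratio was at least 1.5 in 15 genes (15.6%, against 19.4% of all). It was at least 2 in 2 genes, Rab1a and Rab5c (against 4.14% of all), and largest in Rab5c at 2.13.

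The tested Rab GTPases with the most negative 75-day differences were Rab1a, Rab33a, Rab14 and Rab5c. Rab1a, which acts between endoplasmic reticulum and Golgi, read 252, 271 and 164 on the nontransgenic, WT-SOD1 and G93A-SOD1 arrays at 75 days. At 110 days it read 334, 245 and 226 in the same order, which holds for every set of 3 values below. Its G93A-SOD1 values lay below all 4 disease-free arrays at both ages. The log2 difference at 75 days was -0.68 ± 0.20 SE (0.626-fold, 95% interval -1.14 to -0.21, limma adjusted p = 0.460). Leaving out 1 of the disease-free arrays of 75 days gave -0.73 or -0.62, depending on the array. The disease-free arrays of 110 days do not enter that difference, so leaving out 1 of them could change only its error. That error then came from the disease-free pair of 75 days alone.

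Rab33a, a Rab of the Golgi, read 76.5, 78.2 and 54.4 at 75 days (log2 difference -0.51 ± 0.14 SE, limma adjusted p = 0.460) and 84.8, 77.2 and 74.2 at 110 days. It was tested through the first of the 110-day values alone, in the group where it is higher. Rab14, which acts between endosomes and Golgi, read 703, 672 and 492 at 75 days (-0.48 ± 0.14 SE, limma adjusted p = 0.460) and 854, 766 and 672 at 110 days. Both were lowest in G93A-SOD1 cord within each age, but the other tested probe set of Rab14 read 84.2, 74.7 and 91.1 at 75 days and differed the other way (0.20). Rab5c, of early endosomes, read 434, 457 and 326 at 75 days (-0.45 ± 0.17 SE, limma adjusted p = 0.496) and 695, 543 and 463 at 110 days (-0.41 ± 0.17 SE, limma adjusted p = 0.489). It too was lowest in G93A-SOD1 cord within each age, though its 110-day G93A-SOD1 value lay above both disease-free values of 75 days. Rab2a, of the path from endoplasmic reticulum to Golgi, read 454, 500.0 and 371 and then 653, 516 and 476, again lowest in G93A-SOD1 cord within each age.

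Beyond the Rabs, Snx2, a sorting nexin that works with retromer, read 338, 341 and 241 at 75 days (log2 difference -0.49 ± 0.13 SE, limma adjusted p = 0.460) and 308, 328 and 299 at 110 days. The G93A-SOD1 values were the lowest of each age, with a wide gap at 75 days alone. The other tested Snx2 probe set read 104, 113 and 106 at 75 days, with the G93A-SOD1 value between the disease-free ones. Rabep1, encoding the Rab5 effector rabaptin, read 100.2, 97.0 and 75.6 at 75 days (-0.38 ± 0.20 SE) and its other tested probe set 95.6, 92.2 and 68.1, lowest in G93A-SOD1 cord on both. Snx13, noticed after its values were seen, stayed under the level filter and was not tested. It read 68.0, 72.4 and 40.5 at 75 days and 77.0, 66.3 and 58.4 at 110 days, and its log2 difference at 75 days, -0.79, was more negative than that of any tested member.

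The most positive 75-day differences were those of Rab24, Rab4a and Ap2a1. Rab24, a Rab linked to autophagy, read 232, 259 and 329 at 75 days (log2 difference 0.42 ± 0.15 SE, limma adjusted p = 0.495) and 270.1, 234 and 245 at 110 days. Rab4a, of rapid endosomal recycling, read 198, 257 and 299 (0.41 ± 0.19 SE) and 250.3, 219.9 and 198. Ap2a1, a large chain of the clathrin adaptor AP-2, read 169, 162 and 219 (0.40 ± 0.13 SE) and 155, 147 and 127. All of these lay above the 4 disease-free arrays in G93A-SOD1 cord at 75 days and not at 110 days, when Ap2a1 lay below them. Ap3s2, a small AP-3 chain, read 65.3, 64.8 and 79.8 (0.30 ± 0.13 SE), and it was tested through the last of these values alone. Vps37b, of the ESCRT-I complex that sorts cargo into multivesicular bodies, read 117, 103 and 129 (0.23 ± 0.16 SE) and 97.0, 113 and 119, highest in G93A-SOD1 cord within each age.

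**Figure D1:**
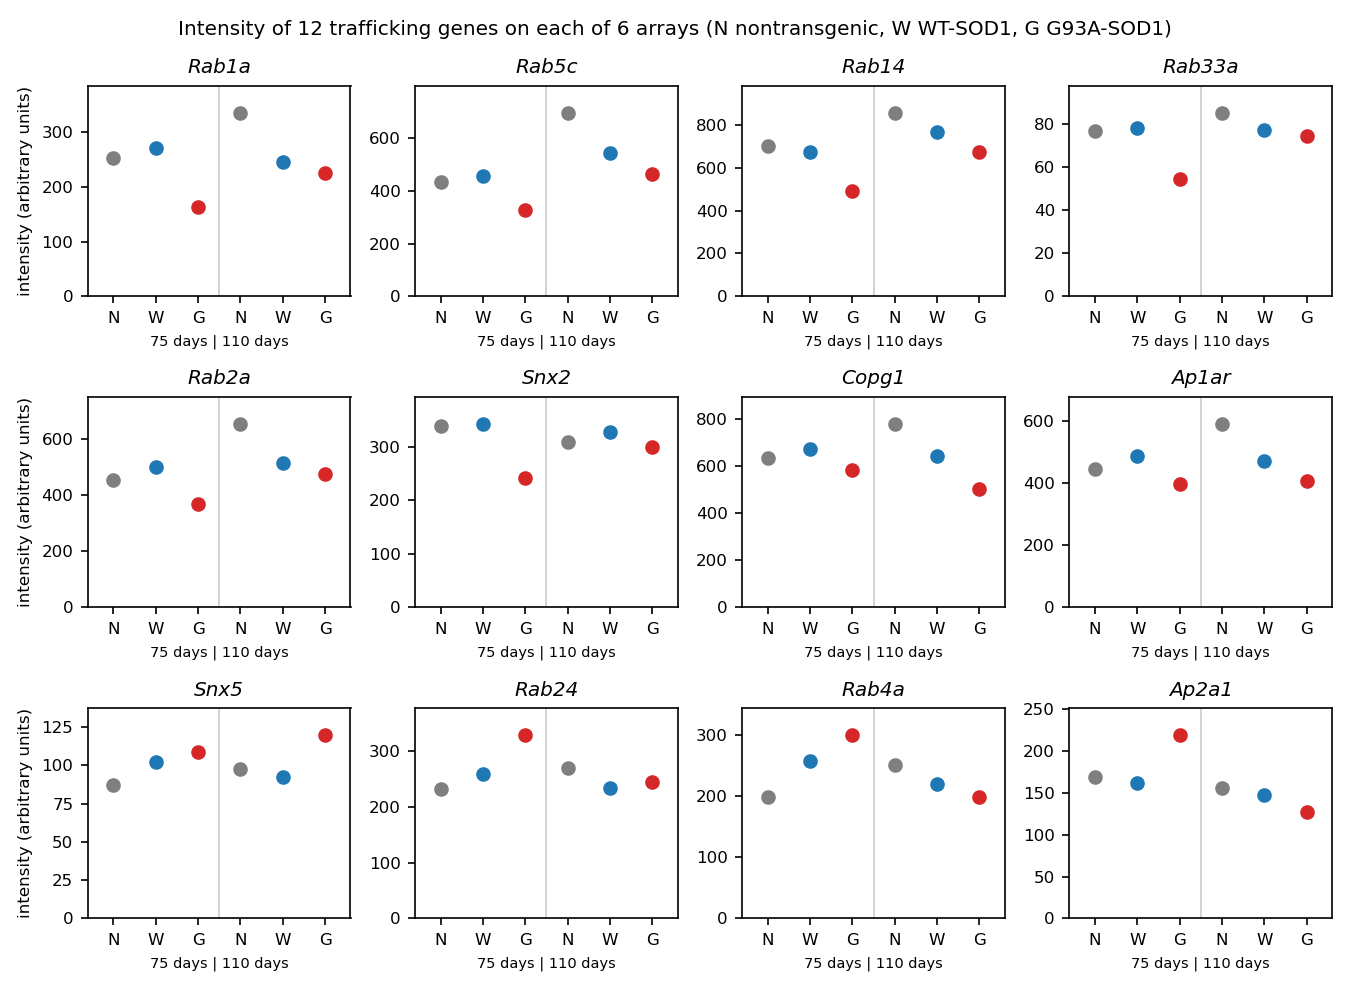
Intensity (arbitrary units, linear axis from 0) of 12 trafficking genes, 1 point per array with no replicates, at 75 days (left of the line) and 110 days (right) for nontransgenic (N, grey), WT-SOD1 (W, blue) and G93A-SOD1 (G, red) cord. Rab1a, Rab5c, Rab14, Rab33a, Rab2a and Snx2 have their lowest point in G93A-SOD1 cord at 75 days, Copg1 in G93A-SOD1 cord at 110 days, and Rab24, Rab4a and Ap2a1 have their highest in G93A-SOD1 cord at 75 days.

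At 110 days the smallest p belonged to the COPI gene Copg1, which encodes a gamma subunit of the coat. It read 777, 642 and 502 at 110 days (log2 difference -0.49 ± 0.16 SE, 0.711-fold, 95% interval -0.87 to -0.12, limma adjusted p = 0.306) and 632, 671 and 584 at 75 days (-0.16 ± 0.16 SE). Its G93A-SOD1 values lay below all 4 disease-free arrays at both ages. The second Copg1 probe set had the same order within each age, with 291, 241 and 197 at 110 days and 273, 293 and 229.7 at 75 days. Other subunits lay closer to 0. Copz2, a zeta subunit, read 113, 114 and 128 at 110 days (0.18 ± 0.15 SE), above all disease-free arrays, and Copb2, a beta-prime subunit, read 851, 797 and 792 (-0.057 ± 0.17 SE, or 0.012 with quantile normalization). Of 7 COPI genes 5 were below 0 at 110 days, and 3 with quantile normalization.

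The Rab GTPases ranged from -0.41 for Rab5c to 0.23 for Rab8a at 110 days. Rab5a, another Rab of early endosomes, read 872, 678 and 628 (log2 difference -0.29 ± 0.19 SE), lowest in G93A-SOD1 cord of that age, while Rab1a stood at -0.34 ± 0.20 SE and Rab2a at -0.29 ± 0.18 SE. Rab8a, of transport to the plasma membrane and cilium, read 281, 231 and 299 at 110 days (0.23 ± 0.17 SE) and 237, 272 and 230.3 at 75 days, so G93A-SOD1 cord was above all disease-free arrays at the older age and below them at the younger. Rab34, a Golgi Rab with a role in cilia, read 132, 134 and 151 (0.18 ± 0.13 SE). Rab6a, of transport through the Golgi, read 1032, 1114 and 1204 at 75 days and 1072, 1142 and 1025 at 110 days, with G93A-SOD1 cord highest at the first and lowest at the second. Its other tested probe set read 661, 708 and 840.1 at 75 days and 732, 644 and 693 at 110 days, again highest in G93A-SOD1 cord at the younger age but between the disease-free values at the older. The Rab3 proteins of regulated secretion had differences of 0.063 (Rab3a), -0.057 (Rab3b) and 0.11 (Rab3d), all inside their errors.

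Retromer, the coat that returns receptors from endosomes to the Golgi, is built of Vps35, Vps29 and a Vps26 subunit. Vps26b read 249, 221 and 186 at 110 days (log2 difference -0.33 ± 0.15 SE, limma adjusted p = 0.500) and 224, 207 and 187 at 75 days, and its G93A-SOD1 values lay below all 4 disease-free arrays. Vps35 read 876, 707 and 700.1 (-0.17 ± 0.16 SE) and 677, 686 and 572 (-0.25 ± 0.16 SE), below the disease-free arrays of the same age. Vps29 and Vps26a differed by -0.30 and -0.30 at 75 days and by -0.14 and -0.046 at 110 days. Vps54, of the GARP tether that receives such carriers, read 202, 206 and 179 at 75 days (-0.19 ± 0.15 SE) and 210.3, 182 and 207 at 110 days (0.077 ± 0.15 SE). The gene of the wobbler mouse was thus lowest in G93A-SOD1 cord at the younger age and inside the disease-free range at the older. Vps53 of the same tether read 269, 259.7 and 237 at 110 days, lowest in G93A-SOD1 cord. Vps41, of the HOPS complex of late endosomes, differed by -0.28 at 75 days and -0.20 at 110 days, and Vps37b by 0.18 at 110 days.

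Sorting nexins lay on both sides of 0 at 110 days. Snx5, which works with retromer, had the most positive difference of all tested members. It read 97.8, 92.1 and 119 at 110 days (log2 difference 0.33 ± 0.15 SE, limma adjusted p = 0.531) and 87.3, 102 and 108 at 75 days, above all disease-free arrays at both ages. Snx12 read 131, 111 and 135 (0.17 ± 0.16 SE), and Snx3, of endosomal recycling, 1494, 1501 and 1403 (-0.094 ± 0.16 SE). Snx14 was the most negative, with 149, 123 and 107 (-0.34 ± 0.16 SE) at 110 days and 124, 128 and 112 at 75 days, below all disease-free arrays at both ages.

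Among adaptor genes the most negative 110-day difference was that of Ap1ar, which encodes gadkin, a regulator of AP-1 vesicles. It read 588, 469.5 and 408 at 110 days (log2 difference -0.37 ± 0.17 SE, limma adjusted p = 0.543) and 446, 486 and 396 at 75 days, below all disease-free arrays at both ages. Ap2m1, the medium chain of AP-2, read 1495, 1564 and 1212 at 75 days (-0.34 ± 0.16 SE) and 1679, 1374 and 1414 at 110 days (-0.10 ± 0.16 SE). Ap2b1, a beta chain of AP-2, read 179.5, 135 and 175 at 110 days (0.17 ± 0.19 SE, or -0.035 without the WT-SOD1 array of that age).

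The Arf GTPases ranged from -0.071 for Arf5 to 0.19 for Arf4 at 110 days. Arf1, which recruits COPI and AP-1, read 2021, 1647 and 1789 at 110 days, between both disease-free values (log2 difference -0.028 ± 0.17 SE, or 0.029 with quantile normalization). Arf4 read 284, 237 and 296 (0.19 ± 0.17 SE), and Arf5 537, 495 and 491 (-0.071 ± 0.13 SE). Arfgef1, an exchange factor that activates Arf proteins at the Golgi, read 467, 372 and 340.2 (-0.29 ± 0.18 SE) and 369, 419 and 347 at 75 days, below all disease-free arrays at both ages. Arfgap2, a GTPase-activating protein of the COPI cycle, differed by -0.018 (0.048 with quantile normalization). Among Rab regulators at 110 days, Rabac1, which binds prenylated Rabs, differed by -0.17 and Rabggta, a subunit of the enzyme that prenylates Rabs, by 0.085. Rabep1 read 142, 102 and 102 at 110 days (-0.24 ± 0.20 SE), so that the nontransgenic array stood apart, and the difference was -0.0040 without that array. Of the genes that share only a prefix, Vps72 differed by 0.14 and Rab5if by -0.22.

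Over the 96 tested genes the median log2 difference at 110 days was -0.057 (-0.021 over all tested probe sets), and 67 were below 0 (against 55.1% of all). At 75 days it was -0.089 (-0.037 over all), and 65 were below 0 (against 57.5%). Without the level filter, 72 of all 114 genes were below 0 at 110 days and 72 at 75 days, against 41.1% and 42.2% of all probe sets, of which 23.3% and 22.9% had a difference of exactly 0. Among the 114 genes that was so for 9 and 8. Quantile normalization left 53 tested genes below 0 at 110 days and 55 at 75 days, against 50.1% and 48.2% of all, with medians of -0.025 and -0.037 (-0.00059 and 0.0099 over all).

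In G93A-SOD1 cord 57 genes lay below both disease-free arrays of the same age at 75 days (46.8% of all tested probe sets) and 21 above both (32.2%). At 110 days 40 lay below both (35.3%) and 16 above (25.6%). Set against all 4 disease-free arrays, 47 genes lay below the range at 75 days (34.7% of all) and 13 above it (23.8%), and at 110 days 24 lay below (27.0%) and 13 above (16.9%). Below all 4 disease-free arrays at both ages lay 16 genes (16.7%, close to the 15.6% of all tested probe sets): Ap1ar, Ap4s1, Arfgef1, Cope, Copg1, Rab1a, Rab33a, Rabac1, Rabgap1l, Snx14, Snx2, Snx21, Vps26b, Vps41, Vps45 and Vps53. Above all 4 at both ages lay 3, namely Ap1s1, Snx5 and Vps37b (3.12%, against 6.23% of all).

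**Figure D2:**
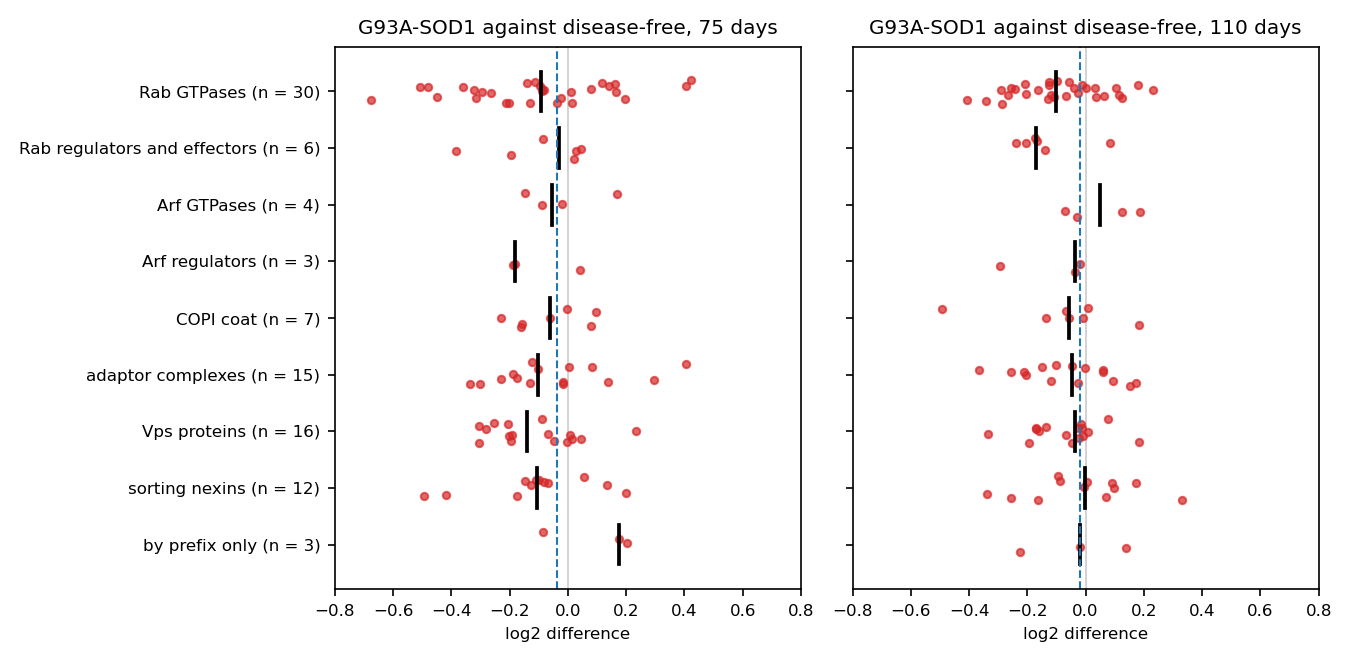
Log2 difference of G93A-SOD1 from disease-free cord (x axis) at 75 days (left) and 110 days (right) for the tested genes by role, 1 point per gene. Black bars are medians and the blue dashed line is the median of all tested probe sets; Rab1a at -0.68 (75 days) is the point farthest from 0.

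Roles lay at different medians, which were not tested against each other. Of 7 Rabs of the endoplasmic reticulum and Golgi, 6 were below 0 at 75 days (median -0.32, or -0.23 with quantile normalization) and 6 at 110 days (median -0.12, or -0.090). Of 13 Rabs of early and recycling endosomes, 11 were below 0 at 75 days and 11 at 110 days (medians -0.14 and -0.13, or -0.088 and -0.077 with quantile normalization). Other tested probe sets in these groups did not all follow. At 110 days those of Rab10 (0.17), Rab14 (0.17), Rab6a (0.012) and Rab33b (0.011) were above 0, and that of Rab11a was below (-0.43). At 75 days those of Rab14 (0.20) and Rab33b (0.076) had the opposite sign, and those of Rab10 (-0.049), Rab11a (-0.30) and Rab6a (0.30) the same. Rabs of late endosomes, lysosomes and related organelles lay above 0 at 75 days, with 0 of 6 below 0 and a median of 0.11 (0.18 with quantile normalization). The count depends on the assignment of each Rab to 1 group. Rab12, which differed by -0.21 at 75 days and 0.035 at 110 days, was placed in none of the Rab groups. The count for late endosomes and related organelles includes Rab28 at 0.012, Rab9 at 0.015 and Rab31, of the trans-Golgi and endosomes, at 0.20. It also includes Rab7, of late endosomes, at 0.14, whose second tested probe set, of a kind that can bind related transcripts, read 313, 301 and 194 at 75 days (-0.66). At 110 days 3 of these 6 Rabs were below 0, with a median of -0.0055 (0.024 with quantile normalization). Of all tested probe sets 57.5% were below 0 at 75 days and 55.1% at 110 days.

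At 75 days the medians were -0.14 for 16 Vps genes, -0.10 for 12 sorting nexins, -0.10 for 15 adaptor genes, -0.060 for COPI, -0.054 for 4 Arf GTPases and -0.032 for 6 Rab regulators and effectors. At 110 days they were -0.035, -0.00083, -0.047, -0.057, 0.048 and -0.17 in the same order. With quantile normalization they were -0.095, -0.044, -0.025, 0.022, 0.019 and 0.0052 at 75 days and -0.011, 0.038, -0.035, 0.011, 0.11 and -0.14 at 110 days, so the sign turned for COPI at both ages, for Arf GTPases and Rab regulators at 75 days and for sorting nexins at 110 days.

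The difference between G93A-SOD1 and disease-free cord had its most negative changes with age in Ap2a1 (change -0.66 ± 0.19 SE, limma adjusted p = 0.503) and Rab4a (-0.65 ± 0.27 SE), which went from positive to negative. Rab24 came next (-0.46 ± 0.22 SE), with a 110-day difference close to 0 (-0.039 ± 0.15 SE, or 0.011 with quantile normalization). The most positive changes were those of Snx2 (0.41 ± 0.19 SE) and Rab33a (0.39 ± 0.19 SE), whose differences were below 0 at both ages, and of Rab8a (0.37 ± 0.24 SE), which went from negative to positive. On the other tested Snx2 probe set the change was -0.030. The median change was 0.040, against 0.0046 over all tested probe sets, with 42 genes below 0 (against 49.2% of all), and none of these changes passed the limma test.

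The order of the arrays was alike for many of these genes. The nontransgenic array of 110 days was the highest of the 6 for 50 of 96 (30.1% of all tested probe sets), and the G93A-SOD1 array of 75 days was the lowest for 40 (28.8% of all). Both held for 30 genes (31.2%, against 16.0% of all), among them Rab1a, Rab2a, Rab5a, Rab5c, Rab14, Rab18, Rab33a, Vps35, Vps41, Vps54 and Ap2m1. Rab18, of the endoplasmic reticulum and lipid droplets, is an example, with 646, 677 and 529 at 75 days and 963, 718 and 743 at 110 days. The lowest value lay on the nontransgenic array of 75 days for 16 genes (16.7%, against 9.96% of all), on the G93A-SOD1 array of 110 days for 15 (15.6%, against 17.2%) and on the nontransgenic array of 110 days for 13 (13.5%, against 27.0%). The WT-SOD1 arrays were lowest for 2 genes at 75 days and 10 at 110 days (6.37% and 10.5% of all). The G93A-SOD1 arrays were highest for 12 genes at 75 days and 11 at 110 days (20.9% and 13.6% of all). The WT-SOD1 arrays were highest for 10 and 5 (11.9% and 12.7%), and the nontransgenic array of 75 days for 8 (10.7%). The nontransgenic array of 110 days and the G93A-SOD1 array of 75 days also had the highest and lowest trimmed means of all probe sets, though the first had the lowest median, as given above. With quantile normalization, which makes the distributions of all arrays equal, the counts were 38 and 31 (39.6% and 32.3%, against 23.6% and 22.7% of all). With arrays scaled to 1 median they were 58 and 33 (60.4% and 34.4%, against 36.3% and 26.7% of all).

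**Figure D3:**
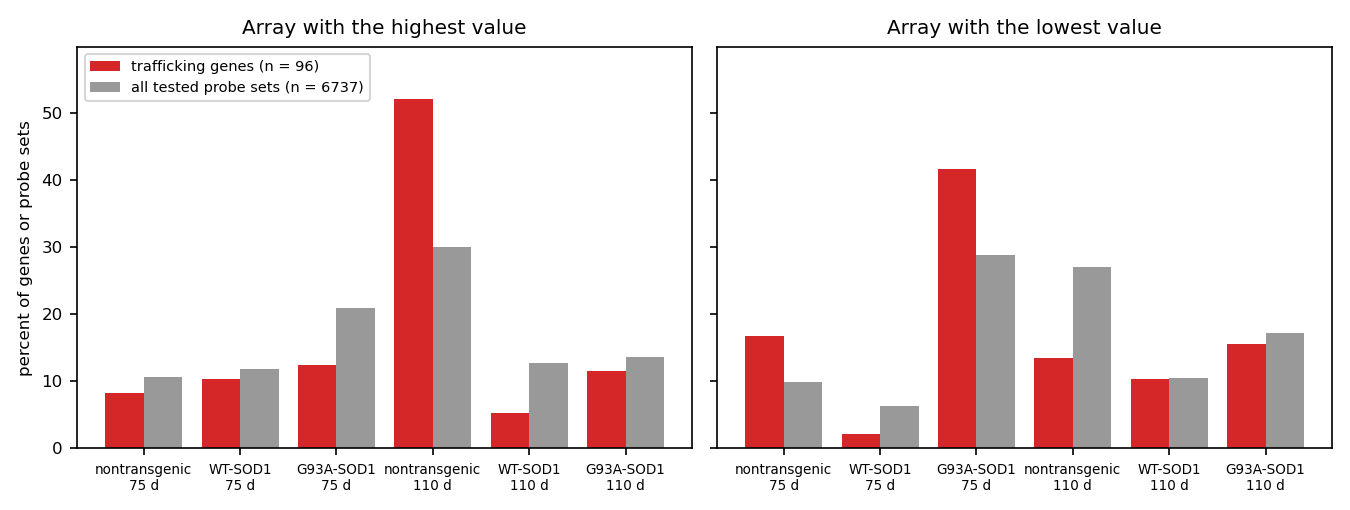
Percent (y axis, from 0) of the tested trafficking genes (red) and of all tested probe sets (grey) whose highest (left) or lowest (right) value lay on each of the 6 arrays. The red bar stands highest above the grey one for the nontransgenic array of 110 days on the left and for the G93A-SOD1 array of 75 days on the right.

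The size of the 110-day difference varied with the disease-free array it was set against. Against nontransgenic cord of 110 days 71 genes were below 0 in G93A-SOD1 cord (74.0%, against 52.9% of all, median log2 difference -0.12), and against WT-SOD1 cord 49 were (51.0%, against 56.8% of all, median -0.0053). At 75 days the counts were 61 against nontransgenic and 71 against WT-SOD1 cord (55.1% and 59.5% of all). Without the WT-SOD1 array of 110 days 4 genes passed at that age, all lower: Copg1 (-0.63 ± 0.13 SE, limma adjusted p = 0.0262), Rab5c (-0.59 ± 0.13 SE, limma adjusted p = 0.0318), Rab1a (-0.56 ± 0.13 SE, limma adjusted p = 0.0381) and Ap1ar (-0.53 ± 0.13 SE, limma adjusted p = 0.0492). In that fit 591 of all tested probe sets passed (8.77%), against 102 with every array. It set 1 G93A-SOD1 array against 1 nontransgenic array at 110 days and took its error from the disease-free pair of 75 days alone (1 residual degree of freedom, with a shared SD of 0.093 in place of 0.12), so the spread at 110 days did not enter it. Without the nontransgenic array of 110 days 0 passed the limma test, and 4 were higher and 2 lower at an unadjusted p under 0.05 (7.42% and 6.26% of all), with the error again from the 75-day pair. A term for the split in spike-in level gave 0 calls among these genes (3.95% of all passed at 110 days). In that fit 13 were lower and 0 higher at an unadjusted p under 0.05 by limma at 110 days (13.5% and 5.95% of all).

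**Figure D4:**
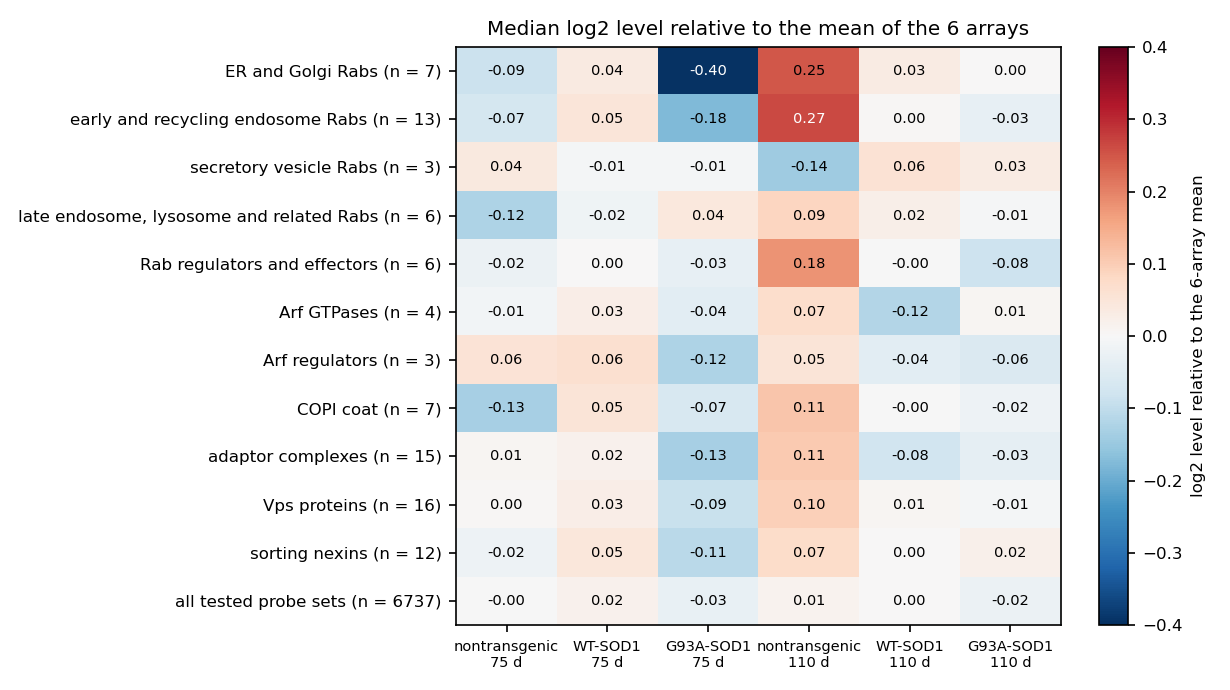
Median over the tested genes of each role of the log2 level on an array (columns) relative to each gene's own mean, printed and coloured (red above, blue below), with all tested probe sets in the last row. Rabs of the endoplasmic reticulum and Golgi run from -0.40 in G93A-SOD1 cord at 75 days to 0.25 in nontransgenic cord at 110 days.

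Between the disease-free arrays, Rab5c had the largest value for age, higher at 110 days in both genotypes (log2 difference 0.46 ± 0.14 SE, limma adjusted p = 0.998). Rab18 (0.33 ± 0.16 SE) and Rab31, of the trans-Golgi and endosomes (0.31 ± 0.12 SE), came next, and Rab34 (-0.23 ± 0.11 SE), Arf3 (-0.20 ± 0.12 SE) and Vps72 (-0.17 ± 0.11 SE) were lower at 110 days in both genotypes. In all 22 genes were higher at the older age in both genotypes (19.8% of all tested probe sets) and 16 lower (19.3%). In the fit 38 were below 0 (against 51.2% of all). The median was 0.17 between the nontransgenic and -0.055 between the WT-SOD1 arrays. For WT-SOD1 against nontransgenic cord the most positive differences with 1 sign at both ages were those of Rab9, of transport from late endosomes to the Golgi (0.30 ± 0.19 SE, limma adjusted p = 1.00), Rab5if (0.19) and Snx3 (0.14), and the most negative those of Ap1g1, the gamma chain of AP-1 (-0.29 ± 0.19 SE), Rabep1 (-0.26) and Vps41 (-0.19). The WT-SOD1 arrays were higher at both ages for 15 genes (18.4% of all) and lower for 15 (15.3%), and 63 genes were below 0 in the fit (against 48.8% of all). That fit averages ages that went opposite ways. At 75 days WT-SOD1 cord was above nontransgenic cord for 69 genes (54.6% of all, median log2 difference 0.071). At 110 days it was below for 69 (51.6% of all, median -0.15).

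Genes that serve the same traffic under other names were read from 8 lists. Of 97 tested genes 0 passed the limma test at 110 or 75 days, against 1.51% and 0.0% of all tested probe sets. At an unadjusted p under 0.05 by limma, 3 were lower and 1 higher at 110 days (5.61% and 4.68% of all tested probe sets). At 75 days 5 were lower and 2 higher (6.52% and 3.34% of all). The 110-day medians were -0.12 for 13 genes of clathrin and its accessory proteins (12 below 0, against 55.1% of all), -0.15 for 8 of the dynamin group, 0.013 for 16 of the COPII coat and its cargo receptors and -0.054 for 11 Arf-like proteins and Arf regulators. They were 0.0076 for 9 other regulators of the Rab cycle, -0.059 for 23 SNAREs and fusion factors, -0.015 for 8 ESCRT genes and -0.029 for 9 tethers and golgins. The sign of the ESCRT median turned with quantile normalization (0.0096).

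Sh3gl2, encoding endophilin A1 of synaptic vesicle recycling, had the most negative 110-day difference of these lists. It read 170.0, 168 and 111 (log2 difference -0.60 ± 0.15 SE, limma adjusted p = 0.170), and Snap91, a clathrin assembly protein of nerve terminals, read 461, 335 and 263 (-0.58 ± 0.20 SE). Both were lowest in G93A-SOD1 cord. Sec23a, of the COPII coat, read 696, 475 and 413 (-0.48 ± 0.22 SE), and Tmed3, a cargo receptor of the early secretory pathway, 179.6, 132 and 227 (0.56 ± 0.21 SE), the one lowest and the other highest in G93A-SOD1 cord. The other list minima were Chmp4b of ESCRT-III (-0.45), the SNARE gene Vamp4 (-0.44), Trappc10 of the TRAPP complex (-0.36), Arl3 (-0.26) and Tbc1d1 (-0.23). The other maxima were Stxbp2 (0.26), Sh3gl3 (0.18), Pdcd6ip (0.15), Cog1 (0.14), Tbc1d10a (0.13), Git1 (0.073) and Gga1 (0.0051).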

How the data were processed

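Per the labels' protocols, poly(A) RNA from 4 cords was labelled with biotin and hybridised a single time per array. The deposited table holds linear intensity values, and the authors' method of probe summary and scaling was not given in the sources used here. Array medians lay within 0.1 on the log2 scale, so no further scaling was applied. After removing 66 control rows of 12488, values below the 25th percentile (31) were set to that value before taking log2. Symbols came from the platform annotation, and all 114 genes matched RefSeq by Entrez identifier.

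limma 3.58.1 in R 4.3.3 (lmFit, eBayes) was run on all 6737 probe sets past the filter, with 4 means for disease-free and G93A-SOD1 cord at each age. WT-SOD1 was compared with nontransgenic cord over the disease-free arrays, adjusting for age. The G93A-SOD1 arrays had no replicates and took their error from the disease-free ones, so p-values describe spread between arrays of unlike genotype and not between mice. The code was tested on simulated data. Members, lists, roles and alternatives were chosen with earlier results of these data known, and the genes that share only a prefix were set apart, and Rab11fip5, Rab3il1 and Rab3ip placed with the effectors, after the table was seen. The named genes are the 8 highest and 8 lowest differences at 110 days, the 5 and 5 at 75 days, the 3 and 3 of every other comparison, and in each role the gene with the highest mean and the extremes at 110 days. Others were chosen after their values were seen. Of 17 genes with several tested probe sets, 10 had probe sets of opposite sign at 110 days and 6 at 75 days.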

Additional observations from a re-analysis of the deposited data

How the results depend on the processing

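Other scalings, floors, filters, a variance trend, a spike-in term, other probe sets and another reading of the symbol rule gave 0 calls among members in each comparison they were run for. Leaving out 1 disease-free array in turn gave 0 to 4 calls at 110 days (4 without the WT-SOD1 array of that age) and 0 to 1 at 75 days (Rab1a, without either disease-free array of 110 days); the cause was not tested. The member medians ranged over these fits from -0.12 to -0.0053 at 110 days, -0.14 to -0.051 at 75 days, -0.040 to 0.10 for the change and -0.020 to 0.12 for age. With nontransgenic controls alone the median was -0.084 for the change and 0.17 for age, and with WT-SOD1 controls alone 0.17 and -0.055; the cause was not tested.

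With quantile normalization the sign turned for 14 tested members at 110 days, among them Arf1 (0.029), Arfgap2 (0.048), Copb2 (0.012) and Rab24 (0.011), and for 10 at 75 days. With arrays scaled to 1 median it turned for 2 and 6. Among the genes named by rule it turned on leaving out 1 array for Ap2b1 (-0.035 to 0.38), Ap2m1 (-0.25 to 0.042), Arf1 (-0.18 to 0.12) and Arfgap2 (-0.066 to 0.030); the cause was not tested. Over all tested probe sets the 110-day count of calls was 102, and 66 with the higher floor, 42 with no filter, 266 with the spike-in term and 194 without the nontransgenic array of that age. At 75 days it was 0, and 50 with no filter and 116 without either disease-free array of 110 days. For WT-SOD1 against nontransgenic cord the spike-in term, single controls and left-out arrays were not run, as no residual degree of freedom remains. Signal limits 8 members, which lay at or under the floor on every array. No paired analysis was possible because the labels give no replicate numbers and each genotype and age has 1 array.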
